A study of Homo sapiens with 2 samples.

Results

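C7orf58 and 9 genes that lie around it on chromosome 7, at 7q31, were followed through both drug-resistant lines of the series. The set was chosen with results of these data in view: C7orf58, now called CPED1, was chosen by its very low log2 ratio in both resistant lines, and KCND2, TSPAN12, ING3, WNT16, FAM3C, PTPRZ1, AASS, FEZF1 and CADPS2 were added for their position. All probes carrying one of these names were taken, which gave 16 of the 41000 probes on the array and 9 of its 30238 gene names. No probe carried the name FEZF1.

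A2780 is an established human ovarian carcinoma cell line. A2780CBN cells were selected to a dose of 22.2 µM carboplatin, a platinum compound that crosslinks DNA, and A2780CBNDXL cells to carboplatin combined with docetaxel, a taxane that stabilizes microtubules. The labels and the study's text differ on the final dose of the combination, so none is given. Both are populations raised by stepwise dose increases, not single clones. Each was compared with A2780CC, drug-free A2780 cells co-cultured alongside. By the study's methods each resistant line had its own co-cultured control, and the labels give both controls this same name. RNA of 3 isolations was pooled per line, and 4 arrays (forward and reverse dye labelling on each of 2 slides) repeat this 1 sample, so the SD given below is technical and no test across samples was possible. In such bulk RNA, fewer cells that express a gene and less RNA per cell cannot be told apart.

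The genes sit side by side but do unrelated work. C7orf58 encodes a protein with cadherin-like and PC-esterase domains whose function is little known, and the stretch that holds C7orf58, WNT16 and FAM3C is known from genetic studies of bone density. WNT16 is a secreted Wnt ligand and FAM3C a secreted protein linked to epithelial-mesenchymal transition. TSPAN12 is a tetraspanin that works with the receptor FZD4 in Norrin signalling, KCND2 is the pore subunit of a fast, transient potassium channel, and PTPRZ1 is a receptor phosphatase of the nervous system. ING3 is a chromatin reader in the NuA4 acetyltransferase complex, AASS carries out the opening steps of lysine breakdown, and CADPS2 prepares dense-core vesicles for release.

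Probe positions are on build NCBI36, as the array files give them. From KCND2 to CADPS2 the member probes span 1579.6 kb in the order KCND2, TSPAN12, ING3, C7orf58, WNT16, FAM3C, PTPRZ1, AASS and CADPS2. The 2 C7orf58 probes lie 168.3 kb apart within the gene, the inner one at chr7:120555703-120555762 and the outer one, near the 3′ end of the gene, at chr7:120724079-120724138. The outer probe is 43.7 kb from the WNT16 probe. The accession list of the inner probe holds transcripts NM_024913 and NM_001105533, that of the outer probe NM_024913 alone. The inner probe is shown because it is a separate sequence from the outer one, with the same low resistant signal. It has 60 bases, and 1 of its 3 reading frames holds no stop codon. The AASS probe is shown beside it as the member that was higher in A2780CBN. Its coordinates, chr7:121503858-121505147 on the minus strand, reach over more than its 60 bases, so it crosses an intron.
C7orf58 inner probe: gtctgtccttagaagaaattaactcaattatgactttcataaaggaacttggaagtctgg
AASS probe: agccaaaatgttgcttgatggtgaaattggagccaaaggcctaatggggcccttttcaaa

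The promoters of the 3 members that were lower in both lines, and of AASS, are given to let their base composition be compared. They are the 250 bases before the start site in the RefSeq table for GRCh38.p14, 5′ to 3′ on the strand of the gene, with CG dinucleotides in capitals. C7orf58 lies at chr7:120988461-120988710 on the plus strand, KCND2 at chr7:120272925-120273174 on the plus strand, TSPAN12 at chr7:120858145-120858394 on the minus strand and AASS at chr7:122144250-122144499 on the minus strand.
C7orf58 promoter: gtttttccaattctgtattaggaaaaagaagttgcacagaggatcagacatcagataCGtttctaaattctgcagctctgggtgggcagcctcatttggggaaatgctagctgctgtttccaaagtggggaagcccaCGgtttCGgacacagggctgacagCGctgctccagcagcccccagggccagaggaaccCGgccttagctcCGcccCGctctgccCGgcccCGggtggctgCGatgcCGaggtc
KCND2 promoter: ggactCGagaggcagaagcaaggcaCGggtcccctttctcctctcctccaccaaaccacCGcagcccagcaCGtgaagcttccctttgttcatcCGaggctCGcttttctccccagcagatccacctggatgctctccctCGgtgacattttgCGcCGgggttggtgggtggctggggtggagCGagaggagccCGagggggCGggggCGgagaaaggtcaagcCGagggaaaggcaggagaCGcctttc
TSPAN12 promoter: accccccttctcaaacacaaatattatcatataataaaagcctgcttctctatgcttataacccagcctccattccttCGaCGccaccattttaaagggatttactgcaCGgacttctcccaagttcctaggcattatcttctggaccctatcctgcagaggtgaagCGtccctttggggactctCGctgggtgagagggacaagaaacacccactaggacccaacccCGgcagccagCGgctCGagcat
AASS promoter: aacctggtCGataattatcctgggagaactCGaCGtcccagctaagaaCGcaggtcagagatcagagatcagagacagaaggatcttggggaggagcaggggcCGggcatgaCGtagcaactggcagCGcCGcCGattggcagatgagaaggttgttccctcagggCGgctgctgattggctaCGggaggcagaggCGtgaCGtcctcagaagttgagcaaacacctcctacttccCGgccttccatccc

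The table held a promoter for 8 members, with ING3 and CADPS2 not among them. The C7orf58 window held 11 CG dinucleotides, the KCND2 window 15, the TSPAN12 window 8 and the AASS window 14, where the median over all 35116 promoter windows was 11, with quartiles of 3 and 23. FAM3C and PTPRZ1, with 30 and 29, were above the upper quartile. The letters GGGCGG, searched on both strands, were in the C7orf58, KCND2, FAM3C, PTPRZ1 and AASS windows and that of the first FEZF1 start. They were not in the TSPAN12 and WNT16 windows, and were in 42.6% of all windows. The letters CCAAT on either strand were in the C7orf58, WNT16, FAM3C, AASS and FEZF1 windows and in 32.0% of all windows. They were not in those of KCND2, TSPAN12 and PTPRZ1. TATAAA was in none of the member windows and in 10.72% of all. The start used here for C7orf58 is the upstream of 2 in the table. The window before the other held 3 CG dinucleotides and neither GGGCGG nor CCAAT.

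A log2 ratio sets a resistant line over its control. A gene counted as higher or lower when the mean reached 1 in size (2-fold), all 4 arrays had one sign, and the scanner software flagged its probe as well above background throughout in at least one channel. A gene with several probes was represented by the brightest. C7orf58, TSPAN12, KCND2, ING3, FAM3C and AASS could be judged in each line. WNT16, PTPRZ1 and CADPS2 were not well above background in either channel on any array. In A2780CBN 3 of the 6 judged members (C7orf58, KCND2 and TSPAN12) were lower, where 4.55% of 17951 genes were lower, and AASS was higher, where 8.0% were higher. In A2780CBNDXL the same 3 were lower, where 9.2% of 17116 genes were lower, and none of the 6 was higher, where 7.7% were higher. Being lower in both lines applied to 1.82% of the 16131 genes judged in both. Since C7orf58 was chosen for its ratio in both lines, nothing is read from these counts. The median log2 ratio of the 6 members was -1.56 in A2780CBN and -1.61 in A2780CBNDXL, beside -0.06 and 0.04 over all genes. The 6 include C7orf58, so nothing is read from these medians either.

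**Figure D1:**
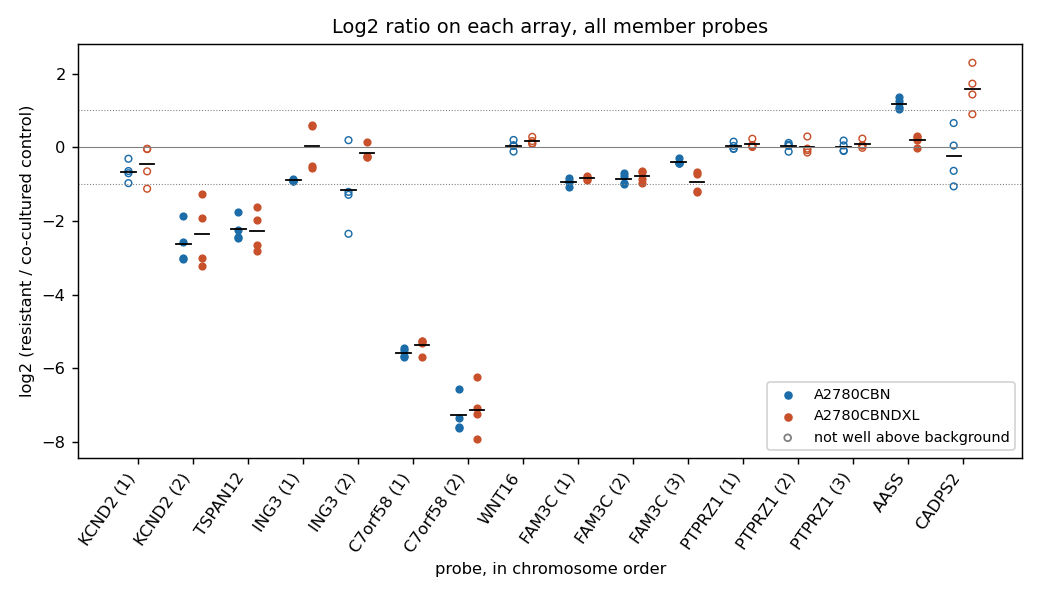
Log2 ratio of resistant line over co-cultured control (vertical axis) on each of the 4 arrays per line, for the 16 member probes in chromosome order (horizontal axis). Points are arrays, black bars the mean, open points probes without a channel that was well above background throughout, and dotted lines the 2-fold limits. Both C7orf58 probes stood at about -5.25 or lower on every array.

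C7orf58 was well above background in both controls and not in either resistant line. At the outer probe, the scaled signal of the control beside A2780CBN was 1120, 1036, 818 and 918 on the 4 arrays (slide 1 forward and reverse, then slide 2 forward and reverse), and that of A2780CBN was 11.9, 5.42, 5.03 and 4.71. The control beside A2780CBNDXL read 1355, 1203, 978 and 860, and A2780CBNDXL itself 18.0, 8.92, 4.06 and 5.66. The groups did not come near each other on any array, and the resistant signal never rose well above background. The log2 ratios were -6.56, -7.58, -7.34 and -7.61 in A2780CBN, with a mean of -7.27 ± 0.49 (SD, n = 4 arrays), and -6.24, -7.08, -7.91 and -7.25 in A2780CBNDXL, with a mean of -7.12 ± 0.69 (SD, n = 4 arrays). Because a signal at background has only an upper bound, the change was given as at least 41.6-fold lower in A2780CBN and at least 51.8-fold lower in A2780CBNDXL, set against the dimmest signals that were well above background.

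The inner probe showed the same. The control signal lay between 239 and 256 beside A2780CBN and between 214 and 264 beside A2780CBNDXL, and the resistant signal between 4.83 and 5.63 and between 4.13 and 6.85. The mean log2 ratio was -5.59 ± 0.12 in A2780CBN and -5.38 ± 0.21 in A2780CBNDXL (SD, n = 4 arrays each), at least 10.68-fold and at least 11.7-fold lower. The size of these ratios rests on how background is treated. With normexp correction at an offset of 50, which adds a constant to every signal, the log2 ratio of the outer probe was -2.04 in A2780CBN and -2.52 in A2780CBNDXL, still past the 2-fold limit.

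**Figure D2:**
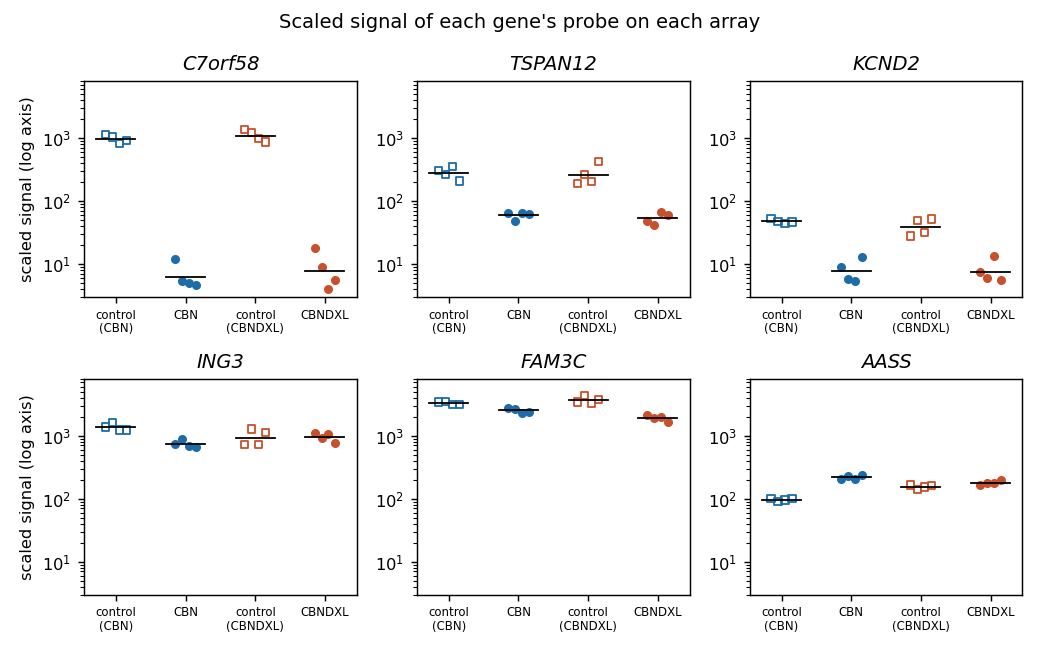
Scaled signal (log axis) of the probe that represents each of 6 genes, in the control and resistant RNA of both lines. Each point is 1 of 4 arrays, open squares are controls, filled circles resistant lines, and black bars the mean of the log2 signals. C7orf58 stood at 818 or more in every control reading and at 18.0 or less in every resistant reading.

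TSPAN12, the receptor partner, was lower in both lines with both channels well above background. Its probe lies at chr7:120214642-120214701. The control signal was 303, 264, 350 and 207 beside A2780CBN, against 64.4, 47.7, 64.3 and 61.1 in A2780CBN. Beside A2780CBNDXL it was 189, 264, 203 and 419, against 48.2, 41.7, 65.8 and 60.1 in A2780CBNDXL. No resistant reading reached a control reading. The log2 ratio was -2.23 ± 0.33 in A2780CBN, or 4.69-fold lower, and -2.27 ± 0.56 in A2780CBNDXL, or 4.81-fold lower (SD, n = 4 arrays each). Under normexp these became -0.62 and -0.70, short of the 2-fold limit.

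KCND2, the potassium channel subunit, was dim. The probe at chr7:120177387-120177446 gave a control signal of 52.6, 47.3, 43.4 and 46.3 beside A2780CBN and 27.8, 48.3, 31.9 and 51.5 beside A2780CBNDXL. The resistant signal was 8.85, 5.75, 5.39 and 12.7 in A2780CBN and 7.37, 6.0, 13.1 and 5.51 in A2780CBNDXL, not well above background on any array. The log2 ratio was -2.62 ± 0.55 and -2.36 ± 0.92 (SD, n = 4 arrays each), which as bounds is at least 2.04-fold and at least 1.93-fold lower. KCND2 was thus counted by its measured ratio, and its bound in A2780CBNDXL was under 2-fold. Under normexp the ratios were -0.21 and -0.20, and the gene was no longer past the limit in either line. The other KCND2 probe, at chr7:120173293-120175005, was not well above background and had log2 ratios of -0.66 and -0.47.

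ING3, next to C7orf58 on the other side from WNT16, differed between the lines. In A2780CBN its log2 ratios were -0.91, -0.89, -0.86 and -0.91, a mean of -0.89 ± 0.02 (SD, n = 4 arrays), just short of the limit. In A2780CBNDXL they were 0.60, -0.50, 0.56 and -0.55, a mean of 0.03 ± 0.64 (SD, n = 4 arrays). There the sign followed the labelling direction, with 0.58 on forward and -0.53 on reverse arrays, so no direction can be given for ING3 in that line. The second ING3 probe was dimmer, at a log2 ratio of -1.16 ± 1.04 in A2780CBN, where it could not be judged, and -0.16 ± 0.21 in A2780CBNDXL.

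FAM3C, the secreted factor, had negative log2 ratios in both lines at all 3 of its probes, none of them past the limit. At the brightest probe, chr7:120777604-120777663, the log2 ratio was -0.39 ± 0.07 in A2780CBN and -0.95 ± 0.28 in A2780CBNDXL. At chr7:120777075-120777134 it was -0.86 ± 0.14 and -0.79 ± 0.16, and at chr7:120777035-120777094 it was -0.94 ± 0.10 and -0.84 ± 0.05 (SD, n = 4 arrays each). The sign was negative on every array at every probe. The lines stood apart at the brightest probe, and lay close together at the other 2. Those 2 are not independent, as they share the 20 bases atttgtgttagctatgggaa.

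AASS, the lysine enzyme, was the member that moved up, in A2780CBN. Its signal differed between the lines and between the controls. In A2780CBN the resistant signal was 205, 233, 202 and 237 against 100.3, 90.5, 95.0 and 99.2 in the control, log2 ratios of 1.03, 1.36, 1.09 and 1.25 with a mean of 1.18 ± 0.15 (SD, n = 4 arrays). In A2780CBNDXL it was 163, 174, 176 and 196 against 164, 141, 153 and 160, and the mean log2 ratio was 0.20 ± 0.14 (SD, n = 4 arrays). The log2 difference of A2780CBNDXL minus A2780CBN was -0.31 ± 0.09, and that of the control beside A2780CBNDXL minus the control beside A2780CBN was 0.68 ± 0.03 (SD, n = 4 matched arrays), larger than the spread between arrays but short of the limit. Under normexp the A2780CBN log2 ratio was 0.39, short of the limit too.

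Between the lines TSPAN12, ING3, FAM3C and AASS could be judged, and none passed the 2-fold limit, where 16.5% of 17083 genes did. C7orf58 and KCND2 could not be judged there, as neither resistant line was well above background. Between the controls all of these genes could be judged, and none passed the limit, where 4.58% of 16871 genes did. The controls (beside A2780CBNDXL minus beside A2780CBN) differed at C7orf58 by 0.16 ± 0.17, at TSPAN12 by -0.11 ± 0.83, at KCND2 by -0.30 ± 0.49, at ING3 by -0.54 ± 0.36 and at FAM3C by 0.15 ± 0.14 on the log2 scale (SD, n = 4 matched arrays). The resistant lines (A2780CBNDXL minus A2780CBN) differed at TSPAN12 by -0.15 ± 0.20, at ING3 by 0.38 ± 0.30 and at FAM3C by -0.40 ± 0.11. Between the resistant lines the difference was larger than the spread between arrays at ING3 and smaller than it at TSPAN12. At ING3 its size followed the labelling direction, with 0.59 and 0.67 on forward and 0.04 and 0.23 on reverse arrays. The FAM3C value is that of the brightest probe, and the other 2 FAM3C probes gave 0.24 ± 0.11 and 0.06 ± 0.16, so FAM3C has no common direction between the lines.

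**Figure D3:**
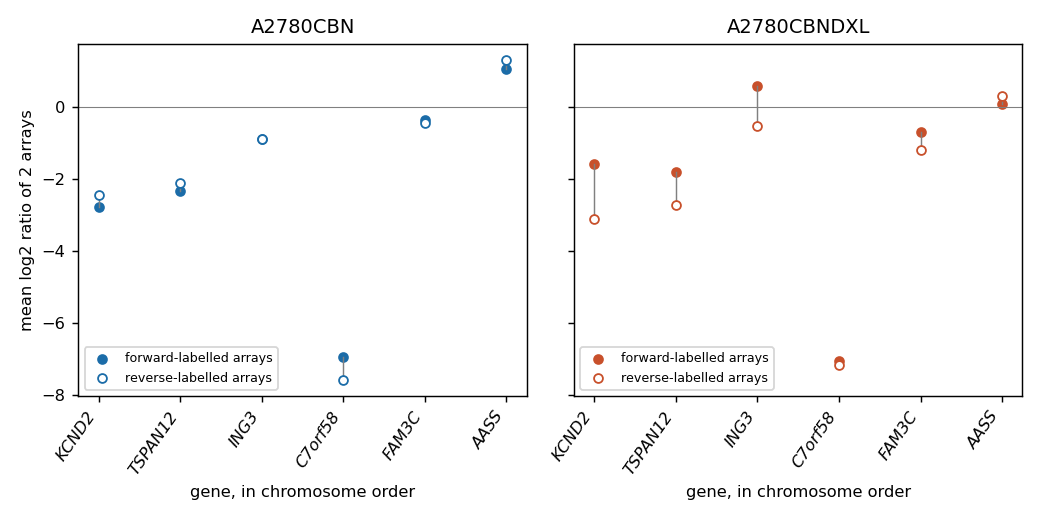
Mean log2 ratio of the 2 forward-labelled arrays (filled) and the 2 reverse-labelled arrays (open) of each line (vertical axis) for the 6 judged genes in chromosome order. In A2780CBNDXL the labelling directions stood apart for KCND2, TSPAN12 and ING3, and for ING3 they had opposite signs.

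The labelling directions bear on several members in A2780CBNDXL. KCND2 had a log2 ratio of -1.60 on forward and -3.12 on reverse arrays there, TSPAN12 -1.80 and -2.73, and FAM3C -0.70 and -1.19. In A2780CBN the gaps were narrower, with -2.79 and -2.45 for KCND2 and -2.34 and -2.12 for TSPAN12. In A2780CBN C7orf58 stood at -6.95 on forward and -7.59 on reverse arrays, and in A2780CBNDXL at -7.07 and -7.16.

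For 3 members no level could be given, as neither channel was well above background. WNT16 stood at a log2 ratio of 0.04 ± 0.13 in A2780CBN and 0.16 ± 0.09 in A2780CBNDXL, with mean signals between 6.16 and 9.50. The 3 PTPRZ1 probes had log2 ratios between 0.01 and 0.08 and mean signals of 6.51 or less. CADPS2 had -0.25 ± 0.76 in A2780CBN. In A2780CBNDXL its log2 ratios were 1.72, 2.29, 1.43 and 0.90, a mean of 1.59 ± 0.58 (SD, n = 4 arrays), with a mean signal of 18.0 in the line, and this was not counted as a change.

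The neighbourhood was mixed, with lower genes standing beside unchanged ones. Within 5 Mb of the midpoint of the C7orf58 probes there were 44 gene names that are no member, of which 19 could be judged in A2780CBN and 16 in A2780CBNDXL. Of these 5 and 4 were lower and none was higher, where over all genes 4.55% and 9.2% were lower and 8.0% and 7.7% higher. Within 1 Mb 3 unnamed transcripts could be judged, and 1 was lower in each line: A_32_P214781 at -1.29 in A2780CBN and A_24_P187094 at -1.25 in A2780CBNDXL, each past the limit in that line only, with -0.66 and -0.95 in the other. The median log2 ratio within 5 Mb was -0.28 in each line, beside -0.06 in A2780CBN and 0.04 in A2780CBNDXL over all genes. Over chromosome 7, without the members, 55 genes were higher and 44 lower of 903 in A2780CBN, and 61 higher and 69 lower of 850 in A2780CBNDXL.

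The named genes that were lower there all lie on the centromere side of C7orf58. TES, which encodes testin, an actin-associated LIM protein, stood at a log2 ratio of -4.99 ± 0.29 in A2780CBN and -4.88 ± 0.07 in A2780CBNDXL (SD, n = 4 arrays each). CAV1, the caveolae scaffold protein caveolin, had -2.81 ± 0.35 and -2.71 ± 0.21, and its partner CAV2 -1.79 ± 0.63 and -1.69 ± 0.69. With the mean over its probes CAV2 was at -0.89 and -0.80, short of the limit in both lines. CTTNBP2, a cortactin-binding protein, had -4.78 ± 0.35 in A2780CBN, at least 7.15-fold lower, and could not be judged in A2780CBNDXL, where the value was -2.83. Between them CAPZA2 had -0.03 and -0.15, ST7 0.08 and 0.16, and LSM8 -0.36 and -0.89, and POT1 on the other side had 0.46 and 0.29. In A2780CBN, CAV1 and CAV2 were at least 4.03-fold and at least 1.51-fold lower, since their resistant signal was not above background there. Under normexp TES was at -2.23 and -2.82, still past the limit, but CAV1 was at -0.35 and -0.65, CAV2 at -0.13 and -0.18 and CTTNBP2 in A2780CBN at -0.67, all short of it. The 2 unnamed transcripts were at -0.29 in A2780CBN and -0.83 in A2780CBNDXL, short of it too.

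**Figure D4:**
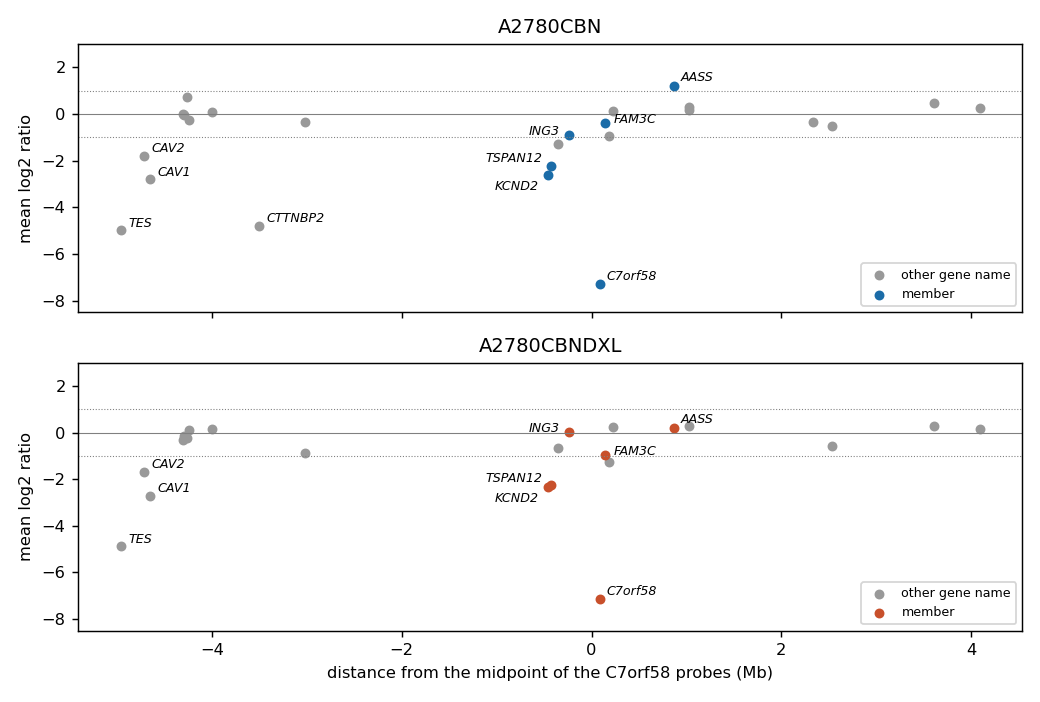
Mean log2 ratio (vertical axis) against distance in Mb from the midpoint of the C7orf58 probes (horizontal axis) for each judged gene name within 5 Mb, A2780CBN above and A2780CBNDXL below, with the 2-fold limits dotted. Members are coloured and other gene names grey. TES, CAV1 and CAV2 form a group of lower points at the left end of the axis, with points near 0 between it and the members.

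Likeness to C7orf58 was ranked among genes judged in at least 1 line, with unnamed transcripts and LOC symbols passed over. Across the 16 channels of the 8 arrays, the named genes whose scaled log2 signals were most like those of C7orf58 were TNFRSF19 on chromosome 13 (Pearson r = 0.994), TES (r = 0.993), LAYN on chromosome 11 (r = 0.991), FOXP2 on chromosome 7 (r = 0.991) and CALML4 on chromosome 15 (r = 0.991). These channels are 4 RNA samples measured 4 times each, so r is a description of a high control and a low resistant level. It does not measure the size of a change. CALML4 stood at a log2 ratio of only -1.09 in A2780CBN and -1.08 in A2780CBNDXL. Under normexp it was at -0.48 and -0.67, short of the limit. FOXP2, a forkhead transcription factor, stood at a log2 ratio of -8.36 in A2780CBN and -7.26 in A2780CBNDXL, at least 83.7-fold and at least 54.9-fold lower, at its brightest probe. The mean over the FOXP2 probes was -3.03 and -2.18, and under normexp the brightest probe gave -2.82 and -2.49. Among the members r with C7orf58 was 0.938 for TSPAN12, 0.929 for KCND2, 0.869 for FAM3C, 0.551 for ING3 and -0.782 for AASS.

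The other genes of the members' families and pathways were described from lists chosen with earlier results of these data known. The counts below are to be read beside the shares over all genes, 8.0% higher and 4.55% lower in A2780CBN and 7.7% higher and 9.2% lower in A2780CBNDXL. Of 8 judged paralogues of the members, in A2780CBN 1 was higher (KCND1, at 1.26, as a bound at least 1.37-fold, since its control was not above background) and 1 lower (ING5, at -1.61), and in A2780CBNDXL 2 were higher (KCND1, at 2.68, and ING4, at 1.15). KCND1 is a channel subunit of the same family as KCND2. Of the NuA4 partners of ING3, none of 14 and none of 15 passed the limit, and of the lysine breakdown genes beside AASS, none of 6 in either line. Over all genes, 2253 of 17951 passed it in either direction in A2780CBN and 2893 of 17116 in A2780CBNDXL.

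For TSPAN12, FZD4 was at -0.27 ± 0.38 in A2780CBN and -1.49 ± 0.29 in A2780CBNDXL, and LRP5 at 0.25 ± 0.85 and 0.48 ± 0.38 (SD, n = 4 arrays each). Of the Wnt target genes 1 of 9 was higher in A2780CBN and none lower, where all genes had 8.0% and 4.55%. In A2780CBNDXL 2 of 12 were higher and 2 lower, where all genes had 7.7% and 9.2%. RNF43, a ligase that removes Wnt receptors, was higher in both lines, at 2.41 ± 0.25 and 3.44 ± 0.32. The secreted inhibitor DKK1 was at 0.998 ± 0.47 in A2780CBN, just short of the limit, with 1.40 on forward and 0.59 on reverse arrays. In A2780CBNDXL DKK1 was higher at 1.96 ± 0.13. In A2780CBNDXL MYC was lower at -1.02 ± 0.07 and LGR5 at -1.26 ± 0.88. LGR5 stood there at -1.99 on forward and -0.53 on reverse arrays, and its resistant signal was well above background on only 2 of the 4 arrays. Of 4 judged ligands of PTPRZ1, 1 was higher and 1 lower in A2780CBN, and 2 were higher and 1 lower in A2780CBNDXL. CNTN1 was at least 1.72-fold higher in A2780CBN and at least 7.98-fold higher in A2780CBNDXL, PTN had -4.17 ± 0.63 (at least 4.95-fold lower) and -2.22 ± 0.42, MDK had 0.23 ± 0.23 and 2.98 ± 0.33, and TNR had -0.03 ± 0.22 and 0.15 ± 0.25. Of 2 judged partners of KCND2, KCNIP2 was higher in A2780CBNDXL at 1.30 ± 0.29, with 0.89 in A2780CBN, short of the limit. The other, KCNIP3, had 0.80 in A2780CBN and 0.30 in A2780CBNDXL. Of 3 judged dense-core vesicle genes beside CADPS2, CPE was higher in A2780CBN at 2.27 ± 0.16, with 0.79 in A2780CBNDXL. CHGB was higher in A2780CBNDXL at 2.19 ± 0.48, with 0.57 in A2780CBN, and CHGA had -0.22 in A2780CBN and 0.33 in A2780CBNDXL.

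Of 6 epithelial markers on the array, KRT8, KRT18 and PAX8 were well above background in every sample, EPCAM was higher in both lines at 2.07 and 1.67, KRT18 was higher in A2780CBN at 1.05, with 0.51 in A2780CBNDXL, KRT19 had -0.48 in A2780CBN and could not be judged in A2780CBNDXL, and WT1 was not above background on any array. Of 7 markers of other cell types, PTPRC, PECAM1 and CDH5 were not above background on any array. CD3E and CD14 were well above background on every array in both lines and both controls, with mean signals between 52.8 and 87.4. The fibroblast markers DCN and LUM moved with the lines. DCN stood at a log2 ratio of 2.21 ± 0.46 in A2780CBN and 3.62 ± 0.29 in A2780CBNDXL, and LUM 2.32 ± 0.71 and 2.51 ± 0.18 (SD, n = 4 arrays each). In A2780CBN the LUM control was not above background, and the change was at least 2.21-fold. The summed signal of the 7 was 439.5 to 552.5 in A2780CBN against 221.2 to 302.9 in its control, and 5431 to 7400 in A2780CBNDXL against 648.1 to 777.6. Whether they have a part in any member's change was not tested. Per array, 59.8% to 67.5% of the spots of a channel were well above background and none was saturated.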

How the data were processed

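The authors deposited the output of Agilent Feature Extraction (10.7.1.1 for slide 1, 10.7.3.1 for slide 2) for 8 two-colour arrays of 60-base probes. The processed intensity of each channel was background-subtracted and dye-normalized within the array by the authors' software, and the raw mean, background and background-subtracted intensities were used for alternatives only. Outlier spots were dropped and spots of a probe averaged. Log2 ratios (resistant over control) were averaged per labelling direction first, so that both directions weighed equally. The labels of both lines give Cy3 to the control and Cy5 to the resistant line, listed in opposite channel order. The dye entries of the reverse arrays repeat this, against their name and the study's methods. They were turned over as the name states: red over green correlated at -0.611 to -0.581 between directions in A2780CBN and -0.739 to -0.727 in A2780CBNDXL, so the sign rests on the forward labels.

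Signals were scaled between arrays by Aquantile (limma 3.58.1, R 4.3.3). A gene was represented by its brightest probe. Members, lists and the rule for named genes (all members, genes within 5 Mb past the limit, the 5 named genes most like C7orf58, list members discussed) were chosen with earlier results of these data known. The number of arrays limits the precision. The call rule was checked on simulated data that held no dye effect, with changes placed only in probes of small spread between arrays. It therefore does not speak to labelling effects or to probes with a wider spread. Figures used matplotlib 3.10.9 and tables pandas 2.3.3 (Python 3.11.15).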

Additional observations from a re-analysis of the deposited data

How the results depend on the processing

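Without 1 array the C7orf58 log2 ratio lay between -7.47 and -7.08 in A2780CBN and between -7.54 and -6.70 in A2780CBNDXL, 2283 to 2330 and 2899 to 3189 genes were past the limit, and 4 and 3 members were. Under normexp with an offset of 50 and loess, 604 genes (A2780CBN) and 1172 (A2780CBNDXL) were past the limit and 1 member in each, C7orf58, at -2.04 and -2.52. The other log2 ratios were -0.62 and -0.70 for TSPAN12, -0.21 and -0.20 for KCND2 and, in A2780CBN, -0.33 for FAM3C, -0.64 for ING3 and 0.39 for AASS. With the mean over a gene's probes C7orf58 was at -6.43 and -6.25, KCND2 at -1.64 and -1.41 and, in A2780CBN, FAM3C at -0.73 and ING3 at -1.03. With background-subtracted signals AASS in A2780CBN was at 1.35 and KCND2 in A2780CBNDXL at -4.60, and in A2780CBNDXL 1 member, TSPAN12, was past the limit, because C7orf58 then had a value on 2 arrays and KCND2 on 3. C7orf58 had one on 1 array in A2780CBN, too few for a mean. Requiring both channels above background left 2 members in A2780CBN and 1 in A2780CBNDXL. A fold limit of 1.5 gave 4860 and 5699 genes, and one of 3 gave 1121 and 1467. Scaling to the 75th percentile set the AASS difference between lines at -0.41 and between controls at 0.58. The ANOVA of the study's methods and limma, whose error is that of arrays only, put 2220 and 2259 genes past the limit in A2780CBN and 2662 and 2898 in A2780CBNDXL, with 4 and 3 members by each. Both fits covered the judged genes and also asked for an adjusted p of at most 0.05. The ANOVA took the channels of an array as separate values, and the study's further filter on replicate and reverse-labelled arrays was not applied. Each log2 ratio already pairs line and control on the same array. No test across samples was possible, since each line is 1 sample.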
